A study of Homo sapiens with 8 samples.

Results

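The 6 genes described here encode factors that end translation, free or rescue ribosomes, and destroy mRNAs on which translation ended too early. They are ETF1 (ENST00000360541), GSPT1 (ENST00000434724), ABCE1 (ENST00000296577), PELO (ENST00000274311), UPF1 (ENST00000262803) and UPF3B (ENST00000276201), each represented by 1 transcript entry chosen by its identifier, out of 82586 entries in all, of which 65003 were annotated as protein-coding. All 6 identifiers were present, and each was annotated as protein-coding. Ribosome footprints, the mRNA pieces that ribosomes shield from nuclease, were counted in 8 libraries in 4 groups of 2. HEK293T, a human embryonic kidney line with the SV40 large T antigen, was profiled with no NAEK and with NAEK at 1 mM. The transgenic cells were HEK293T carrying a stably transfected Mb pyltRNA, likewise without and with 1 mM NAEK. The labels do not say whether the transgenic line is 1 clone or whether the 2 libraries of a group came from separate cultures, so p-values measure the spread between these libraries, which may be technical.

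NAEK is an azide-bearing lysine derivative that a pyrrolysyl-tRNA synthetase can attach to its tRNA, which then reads the amber stop codon UAG as an amino acid. At UAG this tRNA competes with the release factor. In human cells eRF1, made from ETF1, recognises the stop codon and releases the finished protein together with the GTPase eRF3, made from GSPT1. The ATPase ABCE1 then splits the ribosome into its subunits. Pelota, made from PELO, takes the place of eRF1 on ribosomes that are stalled without a stop codon. UPF1, an RNA helicase, and UPF3B, which links it to the exon junction complex, act in nonsense-mediated decay, the pathway that degrades mRNAs whose translation ended ahead of an exon junction.

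Libraries held 12923243 to 20569590 reads, and the transgenes separated the lines as labelled. The synthetase entry stood at 5538 to 5820 RPKM (reads per length of the region, scaled to the total of the library) in the 4 transgenic libraries and at 7.24 to 11.4 RPKM in the 4 HEK293T libraries. The entry pSD31-GFP39-I-H, named for GFP, stood at 3664 and 3761 RPKM in transgenic cells without NAEK, at 6264 and 6980 RPKM with it, and at 8.15 to 21.7 RPKM in HEK293T. No entry used here checks the NAEK label in HEK293T cells. Defining markers of HEK293T were not checked, because no table used here pairs the transcript identifiers with gene symbols. For the same reason 44 further genes of termination, rescue, decay and the exon junction complex were not analysed here. The symbols of the 6 entries came with the rule that chose them. Recovered coding lengths gave 437 codons before the stop for ETF1, 637 for GSPT1, 599 for ABCE1, 385 for PELO, 1118 for UPF1 and 483 for UPF3B, the lengths of the known human proteins or of one of their isoforms.

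The genes lie on 5 chromosomes (RefSeq on GRCh38.p14). ETF1 spans chr5:138506095-138543236 on the minus strand, GSPT1 chr16:11868128-11916654 on the minus strand, and ABCE1 chr4:145098311-145129524 on the plus strand. PELO spans chr5:52787916-52804044 and UPF1 chr19:18831959-18868230, both on the plus strand, and UPF3B spans chrX:119805311-119852963 on the minus strand. PELO lies inside the interval of ITGA1 and overlaps PELO-AS1, ABCE1 overlaps ANAPC10 at its start, and UPF3B overlaps the long noncoding RNA LOC107985694 at its 3′ end. The sources used here do not give strand use in the counting, so reads of overlapping genes cannot be told apart. GSPT1 also has a closely related intronless copy, GSPT2, and its values are uncertain where reads fit both.

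All 6 coding regions were well covered, at 17.9 to 60.8 RPKM over all libraries. By mean density they lay above 89.8 to 95.2% of all protein-coding entries. Among only the coding regions that averaged 1 RPKM or more, they lay above 83.3 to 92.3%. The 3 genes of termination and recycling headed the order with UPF1. Mean density over the 8 libraries was 57.0 RPKM for GSPT1, 54.1 for ABCE1, 48.1 for UPF1, 43.1 for ETF1, 39.3 for PELO and 24.5 for UPF3B. Footprint density holds mRNA amount and ribosomes per mRNA together, and these cannot be told apart in these files. Nor can fewer cells that express a gene be told from less of its RNA per cell.

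**Figure D1:**
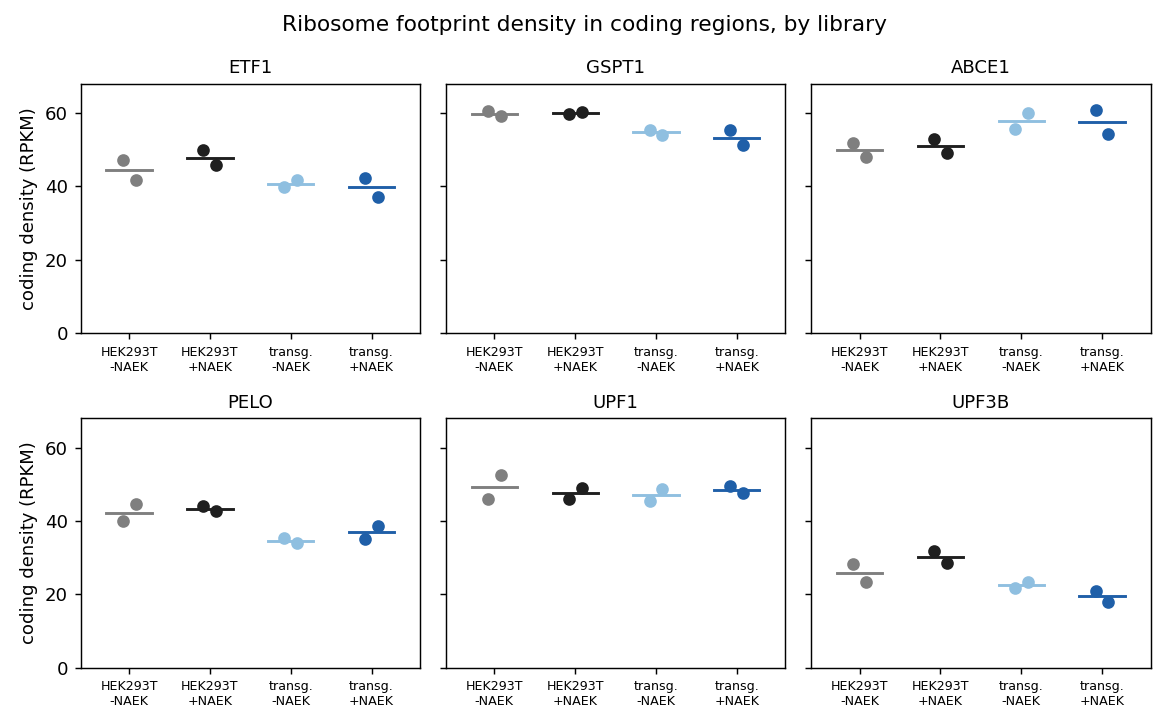
Coding density in RPKM (vertical axis, from 0) for each of the 6 genes in the 4 groups. Points are single libraries and bars are means of 2 libraries. GSPT1, PELO and UPF3B were lower in the 4 transgenic libraries than in the 4 HEK293T libraries, ABCE1 was higher, and ETF1 and UPF1 overlapped.

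No coding region of the 6 passed the test between the lines, and the differences that came nearest were those of UPF3B and PELO. The comparison set the 4 transgenic against the 4 HEK293T libraries, averaged over both NAEK states, with limma on log2(RPKM + 1) fitted to 46156 coding regions at a Benjamini-Hochberg adjusted p of 0.05. Of these, 1.82% passed (838 regions), against 0 of the 6. That number was not stable: other settings gave 220 to 3272 regions. It also fell whenever a library was left out, which leaves 1 library in a group. The reason was not tested. At an unadjusted p under 0.05, 5 of the 6 stood out, ETF1, GSPT1, PELO and UPF3B lower and ABCE1 higher in transgenic cells, beside 20% of all regions, 11.2% lower and 8.89% higher. Groups that do not overlap were found for 4 of the 6 (GSPT1, PELO and UPF3B lower, ABCE1 higher), beside 13.8% of all regions, 7.98% lower and 5.78% higher. The median difference of the 6 was -0.17 by this fit, and that of all regions -0.0037.

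UPF3B had the widest spread of the 6 and the lowest densities in transgenic cells. It stood at 28.3 and 23.5 RPKM in HEK293T without NAEK, at 31.8 and 28.7 RPKM in HEK293T with NAEK, at 21.7 and 23.3 RPKM in transgenic cells without NAEK, and at 21.0 and 17.9 RPKM in transgenic cells with NAEK. The 4 groups followed each other without overlap, from HEK293T with NAEK down to transgenic cells with NAEK. HEK293T without NAEK and transgenic cells without NAEK were parted only by 23.5 against 23.3 RPKM. How many of all regions part into 4 such groups was not counted, so this order cannot be called unusual. Averaged over NAEK states, transgenic cells were lower by a log2 difference of -0.40 (SE 0.09, 95% interval -0.62 to -0.19, limma adjusted p = 0.0725), or 21.0 ± 2.26 against 28.1 ± 3.43 RPKM (SD, n = 4 each). That difference lay below 95.2% of all regions tested. It passed under voom on recovered reads (adjusted p = 0.0103), but there voom called 3272 regions in all, against 838 by limma. With NAEK the difference between the lines was -0.61 (SE 0.13, limma adjusted p = 0.117), and it passed under voom (-0.64, adjusted p = 0.0145). By limma 0.013% of all regions passed there (6 regions, against 947 by voom), and 15.6% had an unadjusted p below 0.05. Without NAEK it was -0.19 (SE 0.13, limma adjusted p = 0.704), where 0.0065% of all regions passed and 9.84% had such a p. Of the 6, UPF3B and ETF1 had one with NAEK, and PELO had one without it. Its highest library was 1.78-fold its lowest, a wider span than in 96.1% of the 6381 entries that averaged 500 or more coding reads, whose median was 1.31-fold.

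UPF1, the central helicase of the same pathway, had overlapping densities in the lines. Its densities were 46.1 and 52.6 RPKM in HEK293T without NAEK, 46.1 and 49.0 with it, 45.4 and 48.7 in transgenic cells without NAEK and 49.5 and 47.6 with it. Libraries of all groups overlapped, and its span was 1.16-fold, with 9.39% of those entries narrower. The log2 difference between the lines was -0.02 (SE 0.07, 95% interval -0.19 to 0.15, limma adjusted p = 0.919). Within each library the density of UPF3B was 0.447 to 0.691 of that of UPF1 in HEK293T and 0.377 to 0.478 in transgenic cells, and these ranges overlapped.

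The release factor pair leaned lower in transgenic cells, eRF1 and eRF3 by similar amounts. ETF1 stood at 47.1 and 41.6 RPKM in HEK293T without NAEK, 49.9 and 45.7 with it, 39.7 and 41.6 in transgenic cells without NAEK and 42.4 and 37.0 with it. The lines overlapped by a narrow margin, and the log2 difference was -0.19 (SE 0.08, 95% interval -0.38 to -0.009, limma adjusted p = 0.229). GSPT1 stood at 60.4, 59.2, 59.8 and 60.3 RPKM in the HEK293T libraries and at 55.4, 54.1, 55.3 and 51.2 RPKM in the transgenic ones, each in the order without NAEK and then with it. The lines did not overlap, and the difference was -0.15 (SE 0.06, 95% interval -0.29 to -0.007, limma adjusted p = 0.229). The ratio of ETF1 to GSPT1, which does not depend on the total of a library, was 0.702 to 0.835 in HEK293T and 0.717 to 0.769 in transgenic cells. The proportions of the pair overlapped between the lines.

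ABCE1 and PELO lay on opposite sides in the comparison of the lines. ABCE1, the recycling ATPase, stood at 51.8 and 48.0 RPKM in HEK293T without NAEK, 52.9 and 49.2 with it, 55.7 and 60.1 in transgenic cells without NAEK and 60.8 and 54.3 with it. All 4 transgenic libraries lay above the HEK293T libraries, with a log2 difference of 0.19 (SE 0.07, 95% interval 0.02 to 0.36, limma adjusted p = 0.201). PELO, the rescue factor, stood at 39.9, 44.6, 44.1 and 42.7 RPKM in HEK293T and at 35.3, 34.0, 35.1 and 38.7 RPKM in transgenic cells, in the same order. All 4 transgenic libraries lay below, with a log2 difference of -0.25 (SE 0.07, 95% interval -0.42 to -0.09, limma adjusted p = 0.110). The ratio of PELO to ABCE1 was 0.770 to 0.929 in HEK293T and 0.567 to 0.712 in transgenic cells. The ratio of ABCE1 to GSPT1 was 0.810 to 0.884 in HEK293T and 1.01 to 1.11 in transgenic cells, so that ABCE1 was the denser of the pair in transgenic libraries and GSPT1 in HEK293T libraries. Both ratios were picked after their values were seen and carry no test. Their separation between the lines follows from the separate densities of ABCE1, PELO and GSPT1 given above and adds nothing to them.

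**Figure D2:**
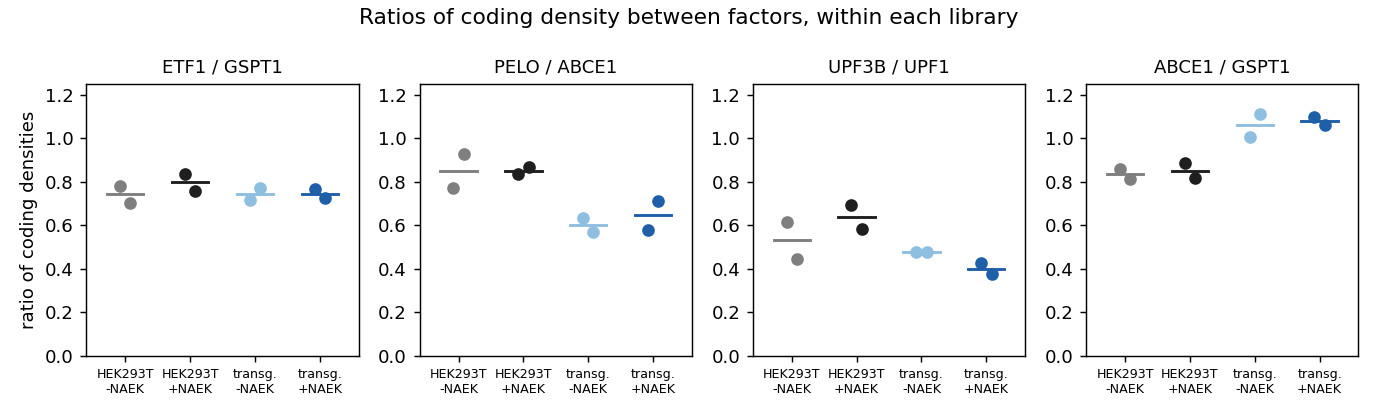
Ratio of coding densities (vertical axis, from 0) for 4 pairs of genes, computed within each library. Points are libraries and bars are means of 2. ETF1 to GSPT1 overlapped between the lines at 0.702 to 0.835, while PELO to ABCE1 reached at most 0.712 in transgenic cells and at least 0.770 in HEK293T. The gap in PELO to ABCE1 follows from their separate coding densities and carries no test.

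No coding region of the 6 passed the test for NAEK in either line. In transgenic cells limma called 0 of 46156 regions (0%), although 5.93% had an unadjusted p below 0.05 and voom called 9 regions. None of the 6 was in either set. Log2 differences ran from -0.20 (UPF3B, 95% interval -0.51 to 0.10) to 0.09 (PELO, 95% interval -0.15 to 0.32), with a median of -0.02 beside 0.04 for all regions. In HEK293T cells limma also called 0 regions (0%), although 3.02% had an unadjusted p below 0.05 and voom called 1 region, and none of the 6 was in either set. There the differences ran from -0.05 (UPF1, 95% interval -0.29 to 0.19) to 0.22 (UPF3B, 95% interval -0.08 to 0.52). Over both lines, the intervals reached no further than -0.51 and 0.52, and differences inside a gene's interval could not be told from 0 with 2 libraries a group.

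UPF3B leaned opposite ways with NAEK in the lines. Both HEK293T libraries with NAEK lay above both without it, and both transgenic libraries with NAEK lay below both without it. Libraries with and without NAEK did not overlap for 37% of all regions in transgenic cells (13.1% lower with NAEK) and for 26.1% in HEK293T cells (15.7% higher with NAEK), and UPF3B alone of the 6 was among them in each. The difference between the NAEK effects was -0.42 (SE 0.19, 95% interval -0.85 to 0.004), and it did not pass (limma adjusted p = 1.0), as no region did (0% of 46156 by limma and 0 by voom, with 3.82% below 0.05 before adjustment). For the other 5 genes the difference between the NAEK effects ran from -0.14 (ETF1) to 0.09 (UPF1).

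**Figure D3:**
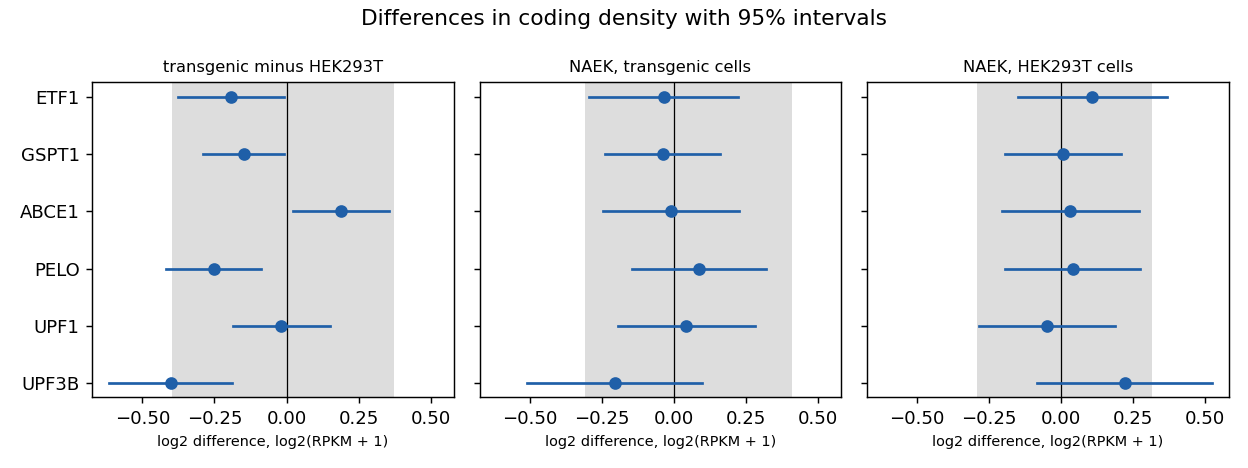
Log2 difference in coding density on the log2(RPKM + 1) scale (horizontal axis) for the 6 genes, with 95% intervals from limma, between the lines and for NAEK in each line. The grey band holds the middle of all 46156 regions, from the 5th to the 95th percentile. UPF3B, at -0.40 between the lines, lay at the lower edge of the band, and the NAEK intervals of all 6 genes include 0.

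Past the stop codon, ABCE1 stood apart from the other 5 genes. The deposited first extended region was read as the stretch from the stop codon of the coding region to the next stop codon, a reading that no source used here states. Its length, recovered from the values, was 126 nt in ETF1, 12 nt in GSPT1, 51 nt in ABCE1, 3 nt in PELO, 36 nt in UPF1 and 3 nt in UPF3B. With few reads a recovered length can fall short of the true one, and the recovered reads then fall short with it. The read counts of GSPT1, UPF3B and UPF1 given next are the smallest that fit the values. Over the 8 libraries the region held 412 reads in ABCE1, 22 in ETF1, 10 in PELO, 2 in GSPT1, 2 in UPF3B and 1 in UPF1, beside 4965 to 22205 reads in the coding regions. The 3 genes with at least 10 reads there were tested among 7799 first extended regions, and the other 3 were not. Read counts also grow with region length, so those over 3 nt cannot be set against the 412 of ABCE1. With all libraries pooled, the density there was 108% of the coding density in ABCE1, 2.92% in ETF1 and 0.42% in UPF1. It was 61.5% in PELO and 19.5% in UPF3B, from the few reads given above, so these 2 genes cannot be ranked against ABCE1. Stop codon identities were not used here, since no transcript sequences were at hand.

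In ABCE1 footprints were about as dense after the stop codon as before it. The region held 67 and 69 reads in HEK293T without NAEK, 35 and 63 with it, 32 and 53 in transgenic cells without NAEK, and 55 and 38 with it. Relative to the coding density this was 147% and 160%, 63.1% and 155%, 64.8% and 94.2%, and 103% and 106%, in the same order. HEK293T without NAEK gave 153 ± 9.27% (SD, n = 2), HEK293T with NAEK 109 ± 65.1%, transgenic cells without NAEK 79.5 ± 20.8% and transgenic cells with NAEK 105 ± 2.13%. Averaged over the 8 libraries, the relative density had a median of 2.20% among 27167 protein-coding entries that averaged 50 or more coding reads. Of these, 8379 stood at 0, and 644, ABCE1 counted, reached the value of ABCE1. Of 2061 entries with an extended region of 30 to 75 nt and at least 10 reads there, 92.4% lay below ABCE1. No RefSeq gene other than ANAPC10, at the start of ABCE1, overlaps its interval. The sources used here do not give how reads that fit several places were counted.

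The density after the ABCE1 stop codon varied between libraries of 1 group beyond counting error. HEK293T with NAEK held 1.76% of its ABCE1 reads there in replicate 1 (exact Clopper-Pearson 95% interval 1.23 to 2.43%) and 4.21% in replicate 2 (3.25 to 5.35%), and these intervals do not overlap. Intervals cover counting error, not PCR copies. The relative density was 92.0% in transgenic and 131% in HEK293T cells, a difference of -39.2 percentage points (exact two-sided permutation p = 0.143, adjusted over 9 such comparisons 0.643). Leaving out HEK293T +NAEK replicate 1, the lowest HEK293T library, gave -61.9 percentage points (exact permutation p = 0.0286, not adjusted), a value that follows from removing that library and is no support for a difference. Over all 8 libraries left out in turn the difference ran from -61.9 to -29.6 percentage points, with exact permutation p up to 0.314. With minus without NAEK, it differed by 25.1 percentage points in transgenic cells and by -44.3 in HEK293T cells (exact permutation p = 0.333 and 0.667, where 2 against 2 cannot go below 0.333). Leaving out single libraries, the former ran from 10.4 (without transgenic -NAEK replicate 1) to 39.8 (without transgenic -NAEK replicate 2), and the latter from -90.3 (without HEK293T +NAEK replicate 2) to 1.71 (without HEK293T +NAEK replicate 1). By limma the log2 difference of ABCE1's first extended density was -0.25 between the lines (SE 0.30, adjusted p = 0.773), 0.40 for NAEK in transgenic cells (SE 0.42, adjusted p = 0.817) and -0.59 for NAEK in HEK293T cells (SE 0.42, adjusted p = 1.0).

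ETF1 had sparse reads after its stop codon, with both transgenic libraries with NAEK highest in relative density. The region held 1 and 1 reads in HEK293T without NAEK, 5 and 0 with it, 3 and 2 in transgenic cells without NAEK and 6 and 4 with it. This was 0.976 and 1.08%, 3.86 and 0%, 3.45 and 2.08%, and 6.52 and 6.63% of the coding density. A count of 0 in this region allows up to 3 reads, or 3.22% of the coding density in the library that had none. The relative density in transgenic cells was 2.76 ± 0.970% without and 6.58 ± 0.076% with NAEK (SD, n = 2 each), with no overlap (exact permutation p = 0.333, as low as 2 against 2 can go). By read counts the intervals overlapped, with 0.622% of ETF1 reads (Clopper-Pearson 0.229 to 1.35%) in transgenic +NAEK replicate 1 and 0.199% (0.024 to 0.716%) in transgenic -NAEK replicate 2. Between the lines it was higher by 3.19 percentage points in transgenic cells (exact permutation p = 0.0857, adjusted 0.643). By limma the log2 difference of its first extended density with NAEK in transgenic cells was 0.78 (SE 0.54, 95% interval -0.50 to 2.06) and did not pass (adjusted p = 0.686).

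Over all first extended regions, 1.74% passed for NAEK in transgenic cells (136 regions), 1.6% higher and 0.141% lower, against 0 of the 3 genes. Leaving out single libraries gave 0 to 40 such regions, the compared libraries alone gave 0, and voom gave 250. For NAEK in HEK293T cells 0% passed (3.63% before adjustment, 2 regions by voom), and for the difference between the NAEK effects 0% (8.68% before adjustment, 20 regions by voom), with none of the 3 genes among the voom calls. Between the lines with NAEK, 1.76% passed (137 regions, 1 to 80 without single libraries and 341 by voom) and again 0 of the 3 genes. Averaged over NAEK states, 0.0256% of all first extended regions passed (2 regions, 102 by voom) and 0 of the 3 genes, with 0.80 for ETF1 (SE 0.38, adjusted p = 0.407).

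For GSPT1, UPF1, PELO and UPF3B, reads after the stop codon were too few to measure passage. GSPT1 had 1 read in each of HEK293T -NAEK replicate 1 and HEK293T +NAEK replicate 1, and 0 in the other 6 libraries. With 3 reads as the limit that a count of 0 allows, its 12 nt could have held up to 25.2 to 37.8% of the coding density in the transgenic libraries. UPF1, with 36 nt, had 1 read in HEK293T -NAEK replicate 1, and the same limit in the 4 transgenic libraries was 9.31 to 13.6%. Both limits hold only for the recovered lengths, and a longer region would lower them. PELO had 1 and 0 reads in HEK293T without NAEK, 3 and 1 with it, 1 and 2 in transgenic cells without NAEK and 0 and 2 with it. Over 3 nt, 3 reads come to 110 to 200% of its coding density, and limma's NAEK difference in transgenic cells was -1.92 with an SE of 1.97 (adjusted p = 0.812). UPF3B had 1 read in each of 2 libraries, HEK293T -NAEK replicate 2 and transgenic -NAEK replicate 2, over 3 nt. A difference with NAEK was not detectable at this depth in any of these 4 genes.

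**Figure D4:**
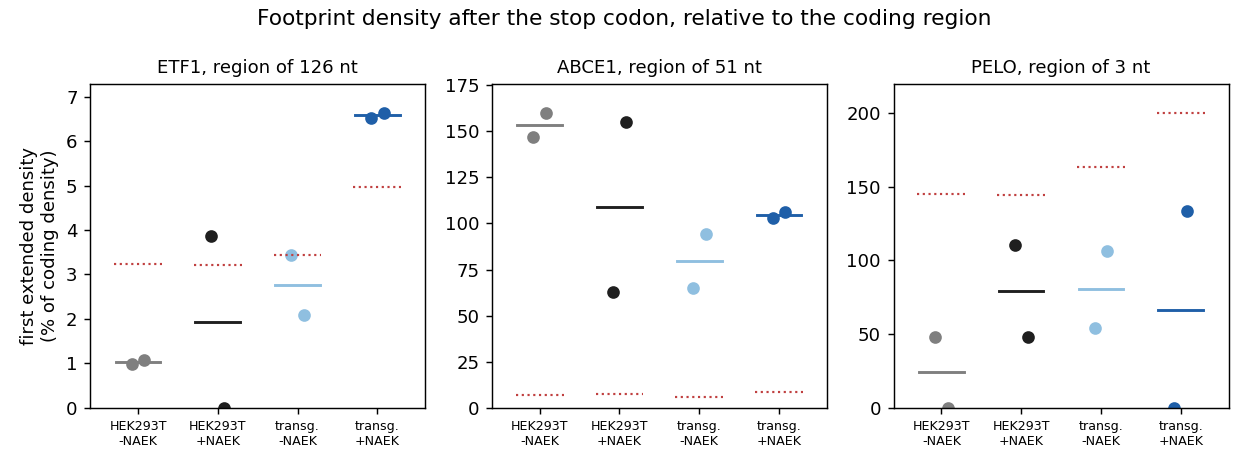
First extended density in percent of the coding density (vertical axis, from 0, on a separate scale for each gene) for the 3 genes with at least 10 reads there. Points are libraries, bars are means of 2, and dotted red lines mark the larger value that 3 reads would give in either library of the group. ABCE1 ran from 63.1 to 160%, far above its line, ETF1 reached 6.63%, and PELO lay under its line in every library.

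The entries with patterns most like those of the 6 were looked up over the 8 libraries, as a description. Among 15498 coding regions with a mean of at least 10 RPKM, the entry most like each gene correlated with it at a Pearson's r of 0.980 to 0.996 across the 8 libraries, on the log2(RPKM + 1) scale. These are the highest of 15498 values over 8 points, and so are high by selection. For UPF3B this was ENST00000370951 (r = 0.996), and 392 entries had an r above 0.9, against 20 for UPF1. For ABCE1 it was ENST00000283109 (r = 0.988), and 81 entries had an r above 0.9. All points share the library totals, and the entries have no symbols in the tables used here. Some of them may therefore be other transcripts of the same gene, which would share its reads.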

How the data were processed

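The labels' protocols name the TruSeq Ribo Profile kit for the libraries. The authors deposited 4 tables, 1 per group, of RPKM in the coding, first extended and second extended region of each transcript, per the file headers. The submitters' processing notes list Bowtie 1.2.2 and hg38. Annotation, read filters, multi-mapping rule and strand use: not given in the sources used here. Libraries were matched to labels by table name and replicate header.

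Whole reads were recovered from the RPKM: 1 read against 1 read is the most frequent ratio between 2 libraries, and the synthetase entry, 1290 nt by its own name, sets the totals. The shortest length that made all reads whole within 0.01 was taken. Among regions with 200 or more reads, 93.1% of coding and 91.6% of first extended lengths were whole codons. Reads served for depth, minimums, intervals and voom.

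The design assumed RPKM. R 4.3.3 with limma 3.58.1 fitted log2(RPKM + 1) of all 8 libraries by group, with the prior variance following the mean, over 46156 coding regions (averaging 1 RPKM or more) and 7799 first extended regions (averaging 50 or more coding reads, with 10 or more extended reads over all libraries). Fold changes on this scale understate changes of low values. The step was tested on simulated reads with changes larger than the coding differences of the 6 genes. That test therefore does not show whether differences of their size would be found. Relative densities were compared by exact two-sided permutation, adjusted over 9 comparisons, with Python 3.11.15 and statsmodels 0.14.6. All 6 genes are described. Further named entries are the transgenes and, per gene, the entry with the highest correlation. The alternatives were other pseudocounts, no filter, no trend, the compared libraries alone, median centring, voom with a trimmed mean of M values, the replicate block and leaving out each library. The genes, lists and tests were chosen with earlier results of these data known.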

Additional observations from a re-analysis of the deposited data

How the results depend on the processing

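No count of genes past the threshold differed from 0 under any alternative, except that UPF3B passed between the lines under voom on recovered reads, 1 of 6 both averaged over NAEK states (log2 -0.41, adjusted p = 0.0103) and with NAEK (log2 -0.64, adjusted p = 0.0145), and, averaged, with the replicate block, 1 of 6 (log2 -0.40, adjusted p = 0.0363). Over its 15 alternatives that average ran from -0.47 to -0.34, with adjusted p from 0.0103 to 0.208. Same-numbered libraries deviated together at r = 0.048 to 0.324 between groups. The labels state no pairing, and the block changed no other call among the 6 genes. Of single log2 differences, 4 of 414 turned sign under other settings: GSPT1 with NAEK in HEK293T (-0.016 after median centring, -0.019 under voom), UPF1 with NAEK in transgenic cells (-0.0058 under voom) and ETF1's extended region with NAEK in HEK293T (-0.30 with a pseudocount of 0.1). The causes were not tested. Over all coding regions, the 838 calls between the lines became 220 to 3272 under other settings (3272 under voom, 2664 with the block) and 7 to 444 without single libraries. With NAEK the 6 calls became 947 under voom and 263 with the block, and without NAEK the 3 calls became 323 and 6. The 136 first extended calls for NAEK in transgenic cells became 0 to 250, and 0 with the block.

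Leaving out single libraries turned the sign of 33 of 432 log2 differences, none of which passed the test. For coding regions with NAEK in transgenic cells these ran from -0.089 to 0.070 in ABCE1, from -0.13 to 0.060 in ETF1, from -0.094 to 0.015 in GSPT1 and from -0.0068 to 0.094 in UPF1. With NAEK in HEK293T they ran from -0.023 to 0.086 in ABCE1, from -0.0086 to 0.020 in GSPT1, from -0.038 to 0.12 in PELO and from -0.15 to 0.044 in UPF1. For the interaction they ran from -0.12 to 0.038 in ABCE1, from -0.10 to 0.0092 in GSPT1, from -0.030 to 0.13 in PELO and from -0.00053 to 0.19 in UPF1. For UPF1 between the lines they ran from -0.065 to 0.029 averaged, from -0.16 to 0.029 without NAEK and from -0.015 to 0.073 with it. For first extended regions, ABCE1 ran from -0.54 to 0.043 between the lines and from -0.34 to 0.83 with NAEK there. ETF1 ran from -0.54 to 1.01 with NAEK in HEK293T and from -0.23 to 1.32 for the interaction. PELO ran from -1.21 to 1.65 between the lines, from -5.03 to 0.68 between them with NAEK and from -4.78 to 0.94 with NAEK in transgenic cells. Relative densities in percentage points ran from -61.9 to -29.6 for ABCE1 between the lines, from -90.3 to 1.71 for ABCE1 and from -1.03 to 2.83 for ETF1 with NAEK in HEK293T, and from -80.5 to 52.8 for PELO with NAEK in transgenic cells. The planned list of 44 further genes was not run, since none matched an identifier. Depth limits the 3 genes with under 10 extended reads.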

Other observations

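The second extended regions, past the next stop codon, held 0 or 1 read of each of the 6 genes in every library, and over all libraries 3 reads in ETF1, 1 each in ABCE1, PELO and UPF1, and 0 in GSPT1 and UPF3B.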
